A study of Homo sapiens with 6 samples.

Results

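The genes described are 10 regulators of apoptosis from the BCL2 family, namely BCL2L1, MCL1, BCL2L11, BBC3, PMAIP1, BAX, BAK1, BID, BIK and BMF, out of 21299 genes that had a probe set of their own. A probe set, the group of probes that measures one RNA on the array, was taken where its gene symbol was one of these names alone, which gave 28 of 54613 probe sets. RNA came from Huh7 cells, an established human liver cancer line, grown in medium with 10% FBS in every group. Cells were treated for 24 h with 5 µM of a statin, which inhibits the synthesis of cholesterol and was meant to lower it, with 120 µg/ml of native LDL, the lipoprotein that delivers cholesterol to cells (nLDL, meant to raise it), or with vehicle (control). Each of the 3 groups had 2 arrays, which the methods call biological replicates, so that p-values measure the spread between few cultures. The labels do not name the statin, and the arrays did not measure cholesterol or cell death.

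Proteins of the BCL2 family decide whether the outer mitochondrial membrane stays intact. The effectors BAX and BAK1 form pores in that membrane and release cytochrome c, anti-apoptotic members such as BCL2L1 and MCL1 hold them in check, and BH3-only members either occupy the anti-apoptotic proteins or engage the effectors directly. Liver cells are known to depend on BCL2L1 and MCL1 for survival, and the family is also controlled at the level of protein stability, cleavage and phosphorylation, which RNA arrays do not read. Values below are log2 values as deposited, differences are log2 differences with the SE that limma fitted, and a difference passed where its limma adjusted p over all probe sets was under 0.05. Where a gene had several probe sets, the one with the highest mean over the 6 arrays stands for it. Probe sets of different genes bind their targets unequally, so levels were compared between groups and never between genes.

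Promoters are shown for the 4 BH3-only genes other than BIK whose brightest probe set lay more than 0.3 from control with the statin, BCL2L11 and PMAIP1 below it and BMF and BBC3 above it, so that the sequences of genes lying on opposite sides can be read side by side. The sequences are from RefSeq (GRCh38.p14), 5′ to 3′ on the gene's strand, and run from 250 bases before the transcription start to 50 bases after it. Capitals mark matches on either strand to 5 motifs, which were the FOXO motif (GTAAACA), the E-box (CACGTG), the CCAAT box (CCAAT), the GC box (GGGCGG) and the AP-1 motif (TGAGTCA). The windows lie at chr2:111120664-111120963 (plus strand) for BCL2L11, chr18:59899746-59900045 (plus strand) for PMAIP1, chr15:40108830-40109129 (minus strand) for BMF and chr19:47232618-47232917 (minus strand) for BBC3.
BCL2L11: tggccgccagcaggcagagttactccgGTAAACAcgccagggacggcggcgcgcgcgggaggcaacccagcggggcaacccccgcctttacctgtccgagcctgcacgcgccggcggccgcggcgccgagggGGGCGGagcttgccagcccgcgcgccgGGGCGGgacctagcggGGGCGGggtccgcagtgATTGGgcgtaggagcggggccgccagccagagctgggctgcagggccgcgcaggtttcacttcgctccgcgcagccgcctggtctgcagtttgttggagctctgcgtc
PMAIP1: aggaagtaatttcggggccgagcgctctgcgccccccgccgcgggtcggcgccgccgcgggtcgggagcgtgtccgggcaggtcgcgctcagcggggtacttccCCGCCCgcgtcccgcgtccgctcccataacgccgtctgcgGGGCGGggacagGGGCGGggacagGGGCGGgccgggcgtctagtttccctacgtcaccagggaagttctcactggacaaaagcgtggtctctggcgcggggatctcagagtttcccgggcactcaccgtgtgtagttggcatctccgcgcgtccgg
BMF: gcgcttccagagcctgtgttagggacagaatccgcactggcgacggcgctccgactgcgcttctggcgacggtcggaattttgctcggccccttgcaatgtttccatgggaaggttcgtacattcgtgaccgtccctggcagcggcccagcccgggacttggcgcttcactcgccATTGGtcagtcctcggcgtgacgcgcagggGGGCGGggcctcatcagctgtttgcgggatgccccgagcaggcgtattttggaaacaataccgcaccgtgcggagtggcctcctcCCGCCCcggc
BBC3: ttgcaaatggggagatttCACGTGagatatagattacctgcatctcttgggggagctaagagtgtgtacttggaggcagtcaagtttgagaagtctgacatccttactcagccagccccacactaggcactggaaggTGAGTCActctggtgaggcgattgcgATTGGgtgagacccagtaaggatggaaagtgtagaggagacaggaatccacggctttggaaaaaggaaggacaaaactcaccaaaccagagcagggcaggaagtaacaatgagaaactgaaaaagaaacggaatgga

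The BCL2L11 window held 1 FOXO match 223 bases before the start, 1 CCAAT box and 3 GC boxes, and it was the only one of 14 windows from 8 members with a FOXO match. That motif was present in 3.42% of the 35116 promoters in the table. PMAIP1 held 4 GC boxes and none of the other motifs, while BMF held 1 CCAAT box and 2 GC boxes. BBC3 held 1 E-box, 1 CCAAT box and 1 AP-1 match. A second listed start of BMF held no match. Over the 14 windows, GC boxes were found in 10 (in 45.0% of all promoters), CCAAT boxes in 5 (34.6%), E-boxes in 4 (7.26%) and an AP-1 match in 1 (4.95%). Windows of 1 gene can overlap, so that 1 site can count more than once in these figures. The 10 windows with GC boxes came from 7 members and the 4 with E-boxes from 3. The E-box of BID was the same site in overlapping windows. The BAX window held 4 E-boxes. The matches describe the letters of these windows only. MCL1 and BIK were not among the 8.

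Array medians ran from 4.84 to 4.91 in log2. The gap between the 3′ and 5′ control probe sets of ACTB, a measure of RNA length, was 2.13 and 1.92 on the statin arrays, 1.62 and 1.54 on the nLDL arrays and 1.63 and 1.64 on the control arrays, while the same gap for GAPDH lay between 0.02 and 0.10 on all 6. The part of this gap in the statin differences below was not tested. All 10 hepatocyte and hepatoma markers were measured at means from 11.06 to 14.26, none passed in any comparison, and their summed level in log2 was 16.91 and 16.94 with the statin, 16.83 and 16.89 with nLDL and 16.85 in both control arrays. The 8 markers of blood, endothelial, stromal and muscle cells had means from 4.05 to 6.96 and none passed.

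The first question was which BCL2 family genes change when cells are treated with the statin. BIK fell, and 2 of the 4 probe sets of BCL2L1 fell. No member rose past the test. At their brightest probe sets, the BH3-only genes BCL2L11 and PMAIP1 lay below control on both statin arrays and BMF and BBC3 above it, without passing. The effectors BAX and BAK1 and the anti-apoptotic gene MCL1 overlapped with control at theirs. Of the 28 probe sets 3 passed, all lower, while over all probe sets tested 2.62% passed and 1.66% passed as lower. By brightest probe set 1 of 10 member genes passed, against 3.75% of all genes. At an unadjusted p under 0.05 the members counted 12 of 28 probe sets, against 18.8% of all. The statin arrays did not overlap with the control arrays at 20 of the 28 (18 lower and 2 higher), against 50.0% of all. Of all 54613 probe sets tested, 12885 lay lower without overlap and 14414 higher. The median difference over the 28 probe sets was -0.16, beside 0.02 over all probe sets tested. Of the 28, BCL2L11 had 7, MCL1 had 6 and BCL2L1 had 4. By brightest probe set the median over the 10 genes was -0.12, with 6 below zero and 4 above, beside 0.02 over all genes. In bulk RNA a lower RNA level per cell and a loss of the cells that carry it cannot be told apart, which holds for every gene named here.

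**Figure D1:**
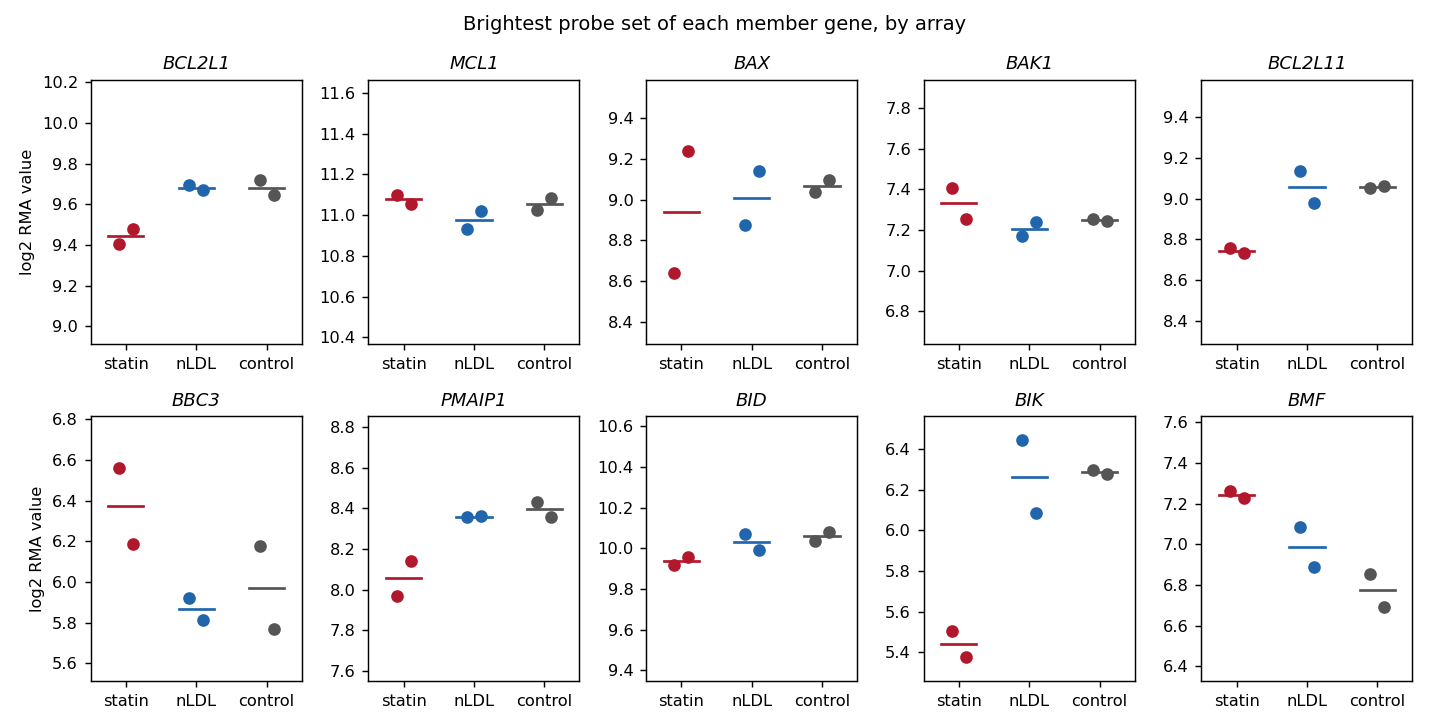
Log2 value of the brightest probe set of each member on each of the 6 arrays (points) with the group mean (line), for statin, nLDL and control from left to right. Every panel spans the same height on the log2 scale. The statin arrays lie clearly lower for BIK (5.38 and 5.50, with both control arrays near 6.3), and for BAX the 2 statin arrays lie on either side of the other 4.

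BIK encodes a BH3-only protein that sits mainly at the endoplasmic reticulum and was the member with the largest difference. It had 1 probe set only, 205780_at. That probe set read 5.50 and 5.38 on the statin arrays, 6.44 and 6.09 on the nLDL arrays and 6.30 and 6.28 on the control arrays. Both statin arrays lay below the other 4, and the nLDL arrays enclosed both control arrays. The statin arrays differed from control by -0.85 (SE 0.12, 1.80-fold lower), with a limma adjusted p of 0.0232. Against nLDL the difference was -0.82 (SE 0.12) with an adjusted p of 0.0239. The first call was lost without either control array (adjusted p 0.146 without control 1 and 0.162 without control 2) and without either statin array (0.113 without statin 1 and 0.0881 without statin 2), while the difference itself stayed between -0.91 and -0.78. The call against nLDL was kept without nLDL 2 (adjusted p 0.0452) and lost without any other single array (0.0615 to 0.116).

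BCL2L1 encodes BCL-XL, the anti-apoptotic protein that binds both effectors and BH3-only proteins. Its 4 probe sets all lay below control on both statin arrays, while statin and control did not overlap at 50.0% of all probe sets. At the brightest one, 212312_at, it read 9.41 and 9.48 with the statin, 9.69 and 9.67 with nLDL and 9.72 and 9.65 in control, a statin difference of -0.24 (SE 0.08, limma adjusted p 0.168). The statin arrays were the lowest of the 6 there, and the nLDL arrays lay within the range of control. At 206665_s_at the values were 5.38 and 5.50 with the statin, 6.03 and 5.86 with nLDL and 5.94 and 5.998 in control. The difference from control was -0.53 (SE 0.09, adjusted p 0.0376) and the difference from nLDL -0.51 (SE 0.09, adjusted p 0.0447).

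A different order was seen at 215037_s_at, which read 5.36 and 5.48 with the statin, 5.71 and 5.68 with nLDL and 6.01 and 5.90 in control. Here the nLDL arrays lay between the other groups with no overlap. The statin difference was -0.54 (SE 0.09, limma adjusted p 0.0291), and that of nLDL was -0.26 (SE 0.09, adjusted p 0.798). The remaining probe set, 231228_at, differed by -0.21 (SE 0.08, adjusted p 0.215) between statin and control. The annotation lists the same transcripts for all 4 probe sets, as it does for every member with several, so it does not say which splice form each binds. The short and long forms of BCL2L1 are known to act in opposite ways on cell survival, and they were not told apart here. Both calls were lost when any 1 of the 6 arrays was left out, with differences from -0.60 to -0.47 at either probe set. For these calls, leaving out either nLDL array gives the same result as a fit of statin and control alone. The call of 206665_s_at against nLDL was likewise lost without any 1 array, with differences from -0.59 to -0.42. Averaged over its 4 probe sets, BCL2L1 differed from control by -0.38 with an adjusted p of 0.0215. Its brightest probe set passed with a trended and robust prior (0.0156).

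MCL1 encodes a short-lived anti-apoptotic protein that binds BAK1 and several BH3-only proteins. Its brightest probe set read 11.10 and 11.06 with the statin, 10.93 and 11.02 with nLDL and 11.03 and 11.08 in control. The statin arrays overlapped with control, and the nLDL arrays lay just below both. The statin difference was 0.02, with a 95% interval from -0.16 to 0.21 (limma adjusted p 0.912). Its sign turned when each array was centred on its median (-0.01). The 6 MCL1 probe sets gave statin differences from -0.20 to 0.10, of which 2 were below zero and 4 above, and none passed. Statin and control did not overlap at 2 of the 6, against 50.0% of all probe sets. These were 200798_x_at (-0.20) and 214057_at (-0.09), both lower with the statin. Another 2 of the 6, 200796_s_at and 227175_at, were dim, and both lay above zero.

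**Figure D2:**
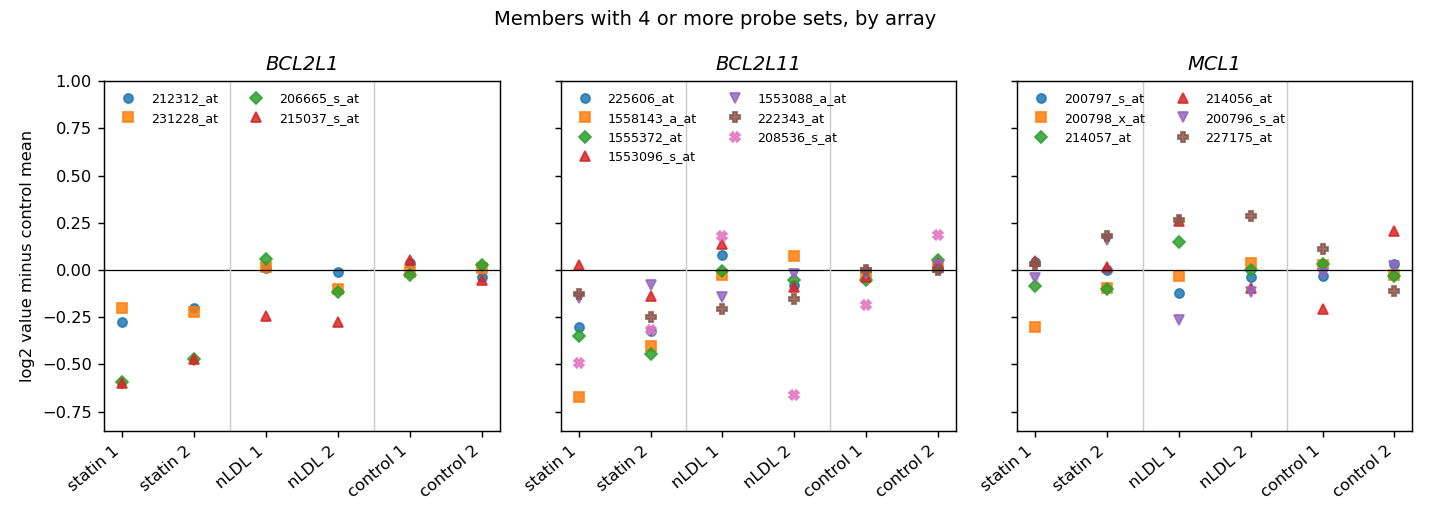
Log2 value minus the control mean on each array for every probe set of BCL2L1 (4 probe sets), BCL2L11 (7) and MCL1 (6), with statin arrays at the left and control arrays at the right of each panel. All BCL2L1 points of the statin arrays lie below zero, the BCL2L11 points spread from about the control level down to -0.67, and the MCL1 points scatter on both sides of zero.

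Among the BH3-only genes, BCL2L11 encodes BIM, which binds all the anti-apoptotic members and is a known target of FOXO transcription factors. The brightest probe set, 225606_at, read 8.76 and 8.73 with the statin, 9.14 and 8.98 with nLDL and 9.05 and 9.06 in control. Both statin arrays were below the other 4, and the nLDL arrays enclosed those of control. The statin difference from control was -0.31 (SE 0.08, limma adjusted p 0.113), with a 95% interval from -0.51 to -0.11, and the difference from nLDL was also -0.31 (SE 0.08, adjusted p 0.125). With a trended and robust prior both passed (0.00708 and 0.00732). At 1558143_a_at the values were 7.16 and 7.43 with the statin, 7.81 and 7.91 with nLDL and 7.82 and 7.85 in control.

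That probe set gave the largest BCL2L11 differences, with -0.54 (SE 0.11, limma adjusted p 0.0517) against control and -0.56 (SE 0.11, adjusted p 0.0462) against nLDL. The call of the second was lost without any 1 array, with differences from -0.70 to -0.43. All 7 probe sets of BCL2L11, read on the same arrays, lay below control with the statin, from -0.54 to -0.06, and none passed. At 6 of them the arrays did not overlap, against 50.0% of all probe sets. One of the 7, 208536_s_at, was dim (mean 4.20) and its nLDL arrays differed from each other by 0.84, the widest gap of any member probe set. The annotation again lists the same transcripts for all of them.

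PMAIP1 encodes NOXA, which acts mainly against MCL1. At 204285_s_at it read 7.97 and 8.14 with the statin, 8.36 and 8.36 with nLDL and 8.43 and 8.36 in control. The statin arrays were again the lowest of the 6. The difference from control was -0.34 (SE 0.09, limma adjusted p 0.105) and that from nLDL -0.30 (SE 0.09, adjusted p 0.149), which passed with the trended prior (0.00968 and 0.0208). The other PMAIP1 probe set gave the same statin difference from control, -0.34, with a wider error (SE 0.14, adjusted p 0.249).

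BMF and BBC3 lay on the other side of control. BMF, whose protein is tied to the actin and myosin motors of the cell until it is released, read 7.26 and 7.23 with the statin, 7.08 and 6.89 with nLDL and 6.85 and 6.69 in control. The 3 groups did not overlap and ran in this order from high to low. The statin difference from control was 0.47 (SE 0.10, limma adjusted p 0.0620), with a 95% interval from 0.24 to 0.71. The difference of nLDL from control was 0.21 (SE 0.10, adjusted p 0.819) and that of statin from nLDL 0.26 (SE 0.10, adjusted p 0.262). The statin call depended on the settings, since BMF passed where the dimmest 40% of probe sets were left out (adjusted p 0.0338), with a trended and robust prior (0.00590), in the fit to gene means (0.0290) and by the methods' t-test at its unadjusted thresholds, and it had 1 probe set only.

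BBC3 encodes PUMA, which binds all the anti-apoptotic members. It read 6.56 and 6.19 with the statin, 5.92 and 5.81 with nLDL and 6.18 and 5.77 in control. The lower statin array exceeded the higher control array by very little, and the 2 arrays of either group lay about as far apart as the group means. The difference was 0.40 (SE 0.17, limma adjusted p 0.259) between statin and control and 0.50 (SE 0.17, adjusted p 0.197) between statin and nLDL.

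BID, which caspase-8 cuts to carry a death receptor signal to the mitochondria, read 9.92 and 9.96 with the statin, 10.07 and 9.99 with nLDL and 10.04 and 10.08 in control. Its statin arrays lay below both control arrays at all 3 of its probe sets, by small amounts, while 50.0% of all probe sets did not overlap. Those differences ran from -0.19 to -0.08 and none passed (limma adjusted p 0.457 at the brightest).

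The effectors showed no difference that passed. BAX read 8.64 and 9.24 with the statin, 8.88 and 9.14 with nLDL and 9.04 and 9.10 in control, and the statin array labelled 1 was the lowest of the 6 and the one labelled 2 the highest. The difference was -0.13 with a 95% interval from -0.58 to 0.32 (limma adjusted p 0.771), and it became 0.17 without statin 1. The second BAX probe set had the same spread, with 8.30 and 8.86 on the statin arrays, 8.52 and 8.73 on the nLDL arrays and 8.71 and 8.59 on the control arrays. BAK1 read 7.41 and 7.26 with the statin, 7.17 and 7.24 with nLDL and 7.26 and 7.24 in control. The lower statin array lay level with the higher control array, and the difference was 0.08 with a 95% interval from -0.12 to 0.28 (adjusted p 0.662).

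Set out by role, the probe sets of the anti-apoptotic members had a median statin difference of -0.15 (2 of 10 lower past the test). Those of the BH3-only members had -0.19 (1 of 15 lower) and those of the effectors -0.07 (0 of 3). These figures pool several probe sets of a gene, and both anti-apoptotic calls were probe sets of BCL2L1. Over all probe sets tested 1.66% passed as lower. By brightest probe set the median of the 2 anti-apoptotic genes was -0.11, with 1 below zero and 1 above. That of the 6 BH3-only genes was -0.22, with 4 below and 2 above. The 2 effectors had a median of -0.02, with 1 on either side. The widest gap between the 2 arrays of a group over member probe sets was 0.60 for statin (BAX), 0.84 for nLDL (BCL2L11) and 0.41 for control (MCL1), with medians of 0.13, 0.11 and 0.06.

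**Figure D3:**
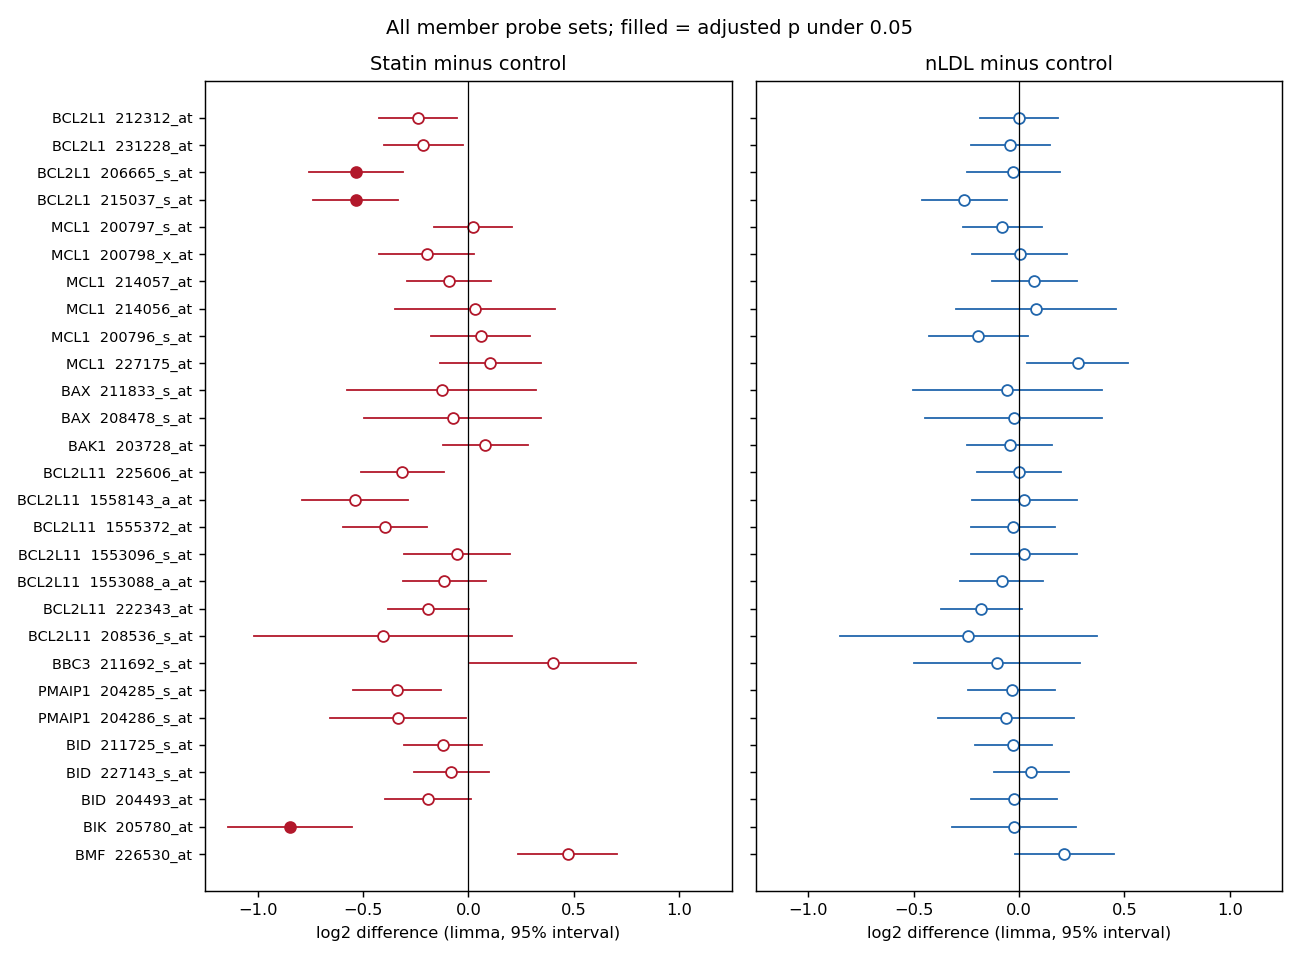
Difference from control on the log2 scale with its 95% interval (limma) at each of the 28 member probe sets, for statin at the left and nLDL at the right. Filled points have an adjusted p under 0.05. The 3 filled points are BIK and 2 probe sets of BCL2L1, all with the statin and all lower, and no nLDL point is filled.

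The second question was which of these genes change when native LDL is added. None of the 28 probe sets passed, and 0% of all probe sets tested did. The methods' t-test at its thresholds called 2 of the 28, against 3.63% of all probe sets. At an unadjusted p under 0.05 there were 2 member probe sets, against 6.15% of all, namely BCL2L1 at 215037_s_at (-0.26) and the dim MCL1 probe set 227175_at (0.28), opposite in sign to the brightest MCL1 probe set (-0.08). The arrays of nLDL and control did not overlap at 8 of 28 probe sets, against 36.1% of all. By brightest probe set the nLDL differences of the 10 members ran from -0.10 for BBC3 to 0.21 for BMF, and the smallest limma adjusted p among them was 0.819. For BIK the 95% interval ran from -0.32 to 0.27 and for BCL2L11 from -0.20 to 0.20.

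The third comparison set the statin against nLDL directly, the condition meant to lower cholesterol against the one meant to raise it. As both differences from control use the same control arrays, this comparison is the test of whether they differ. It called 3 of 28 member probe sets, all lower with the statin, where 2.44% of all passed and 1.41% passed as lower. These were BIK, BCL2L1 at 206665_s_at and BCL2L11 at 1558143_a_at, with the values given above. By brightest probe set BIK was the 1 member gene of 10, against 3.51% of all genes. The arrays did not overlap at 20 of the 28 probe sets (15 lower and 5 higher), against 45.2% of all. Of all 54613 probe sets tested, 11924 lay lower without overlap and 12786 higher.

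The rest of the apoptosis machinery was described through 6 lists. Each held 1 gene or none that passed between statin and control, where 3.75% of all genes did. In all 6 no gene passed between nLDL and control, and from 0 to 1 gene a list had an unadjusted p under 0.05 there. Of 14 other BCL2 family genes, 1 rose with the statin, BCL2L14, which encodes a family member of debated function. It read 7.09 and 6.99 with the statin, 6.39 and 6.56 with nLDL and 6.32 and 6.38 in control. Both statin arrays were above the other 4, and the difference from control was 0.69 (SE 0.09, limma adjusted p 0.0169). BNIP3L, a mitophagy receptor of the outer mitochondrial membrane, was higher than with nLDL by 0.44 (SE 0.08, adjusted p 0.0451), and its difference from control of 0.42 did not pass (adjusted p 0.0521). The median of this list was 0.07.

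Among 16 genes of the apoptosome and the caspases, 1 fell, BIRC5, which encodes survivin, a mitotic protein that also counts among the inhibitors of apoptosis. It read 9.93 and 9.92 with the statin, 10.43 and 10.42 with nLDL and 10.42 and 10.47 in control. Both statin arrays lay below the other 4, and the difference from control was -0.52 (SE 0.07, limma adjusted p 0.0218). The other 15 genes, which include APAF1, CYCS, CASP9 and XIAP, did not pass, and the list median was -0.04.

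In the death receptor arm 1 of 12 genes rose, TNFRSF1A, the main receptor for TNF. Its values were 9.66 and 9.73 with the statin, 9.14 and 9.19 with nLDL and 9.30 and 9.20 in control. Here the nLDL arrays were the lowest, and the statin difference was 0.44 relative to control (SE 0.08, limma adjusted p 0.0429) and 0.53 relative to nLDL (SE 0.08, adjusted p 0.0254). The list median was 0.10. FAS, FADD, CASP8 and CFLAR were among the 11 that did not pass.

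Of 12 known transcriptional regulators of the family, 1 rose, MYC, a transcription factor that drives growth. It read 10.08 and 10.06 with the statin, 9.58 and 9.40 with nLDL and 9.51 and 9.49 in control, a difference from control of 0.57 (SE 0.09, limma adjusted p 0.0267) with no overlap. FOXO1, FOXO3, ATF4 and DDIT3 did not pass, and the list median was -0.02.

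Among 12 genes of the stress and damage response outside the family 1 rose, CDKN1A, which encodes the cell cycle inhibitor p21. It read 8.81 and 8.73 with the statin, 7.63 and 7.87 with nLDL and 7.83 and 7.81 in control. This was the widest separation in the lists, with 0.95 relative to control (SE 0.10, limma adjusted p 0.00917) and 1.02 relative to nLDL (SE 0.10, adjusted p 0.00685). TP53INP1 was higher than with nLDL by 0.50 (SE 0.09, adjusted p 0.0395). The other members of the list, MDM2, SESN1, ZMAT3 and RRM2B among them, did not pass in either comparison, and the median was 0.07. MDM2, FAS and TNFRSF10B of this list are also counted in other lists.

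None of 11 regulators of the stability or activity of family proteins passed. The smallest p-value between statin and control belonged to DYNLL2, the dynein light chain known to bind BMF (-0.26, SE 0.08, limma adjusted p 0.149). The list median was 0.04. Leaving out single arrays ended every call named in these lists under at least 1 array. Differences from control then ranged from 0.92 to 0.99 for CDKN1A, 0.64 to 0.74 for BCL2L14 and 0.56 to 0.58 for MYC. They ranged from -0.55 to -0.49 for BIRC5 and from 0.39 to 0.49 for TNFRSF1A. Far fewer probe sets of any gene passed in fits that set 1 array against 2. The calls of CDKN1A, BCL2L14 and MYC were kept without either nLDL array and lost without any 1 of the other 4. Leaving out an nLDL array is here the same as a fit of statin and control alone. Those of BIRC5 and TNFRSF1A were lost without any 1 of the 6. TNFRSF1A also missed the threshold when arrays were centred on their medians (limma adjusted p 0.0586). Between statin and nLDL, CDKN1A was lost without nLDL 1 or statin 1, and the calls of the other 6 genes of the lists without any 1 array.

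**Figure D4:**
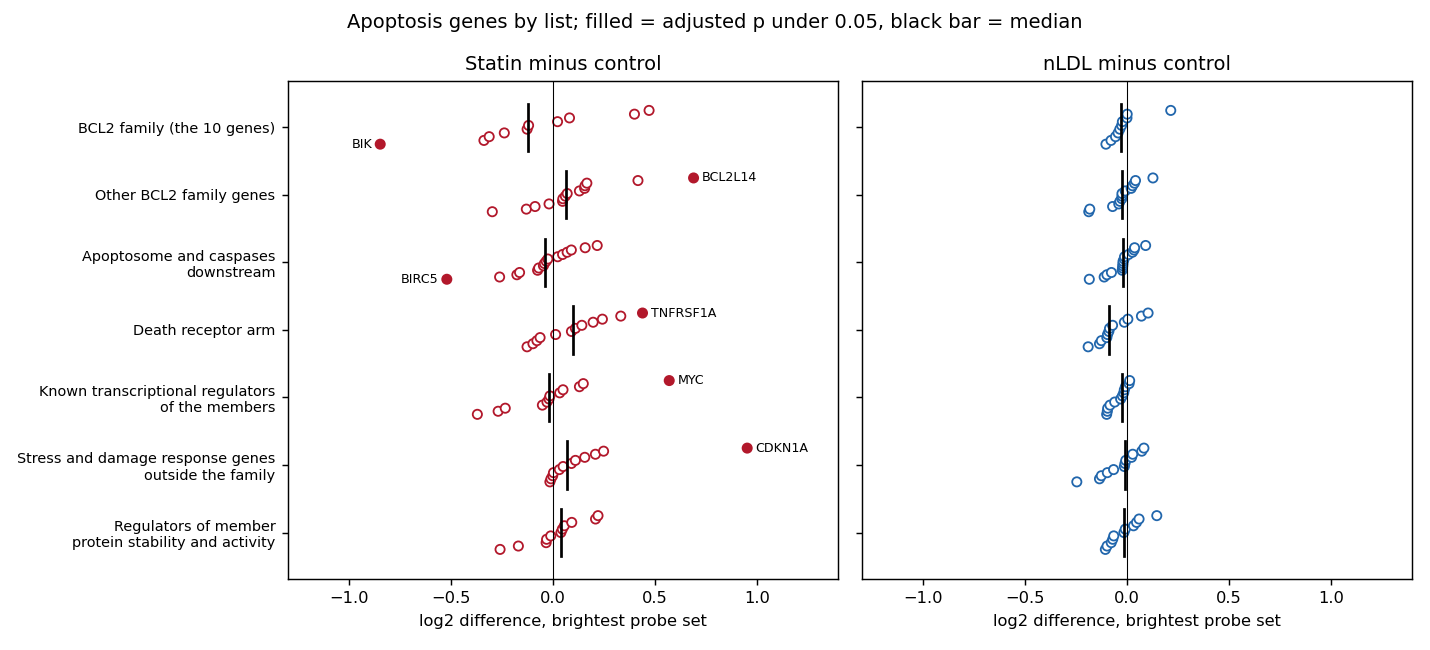
Difference from control in log2 units, each gene by its brightest probe set, for the 10 members in the top row and the 6 lists below them, with statin at the left and nLDL at the right. Filled points have a limma adjusted p under 0.05 and black bars are medians. One gene is filled in each row of the statin panel except the bottom row, and none in the nLDL panel.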

How the data were processed

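Huh7 total RNA was measured on Affymetrix U133 Plus 2.0 arrays, 2 per group. Normalisation was done by the authors with GeneSpring GX 11.5. They deposited log2 values for each probe set, and the name of one table says that robust multi-array averaging (RMA) produced them. Normalisation of this kind holds the distribution of values alike between arrays. Array values have no counting depth, so precision is limited by how many arrays there are.

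Values were read from the series table, whose columns carry sample names. A second deposited table has 6 value columns with headers that no sample label matches. They were used as no sample, and its annotation named the probe sets. Of 54675 probe sets, 62 controls were left out. Of the 54613 tested, 43383 had 1 symbol, 1663 several and 9567 none. All 10 members matched a RefSeq gene number (GRCh38.p14), and promoters came from RefSeq for 8 of them.

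Means of the 3 groups were fitted in R 4.3.3 using limma 3.58.1 (functions lmFit and eBayes) over all 6 arrays, with two-sided tests and 3 residual and 4.08 prior degrees of freedom. Adjustment was by Benjamini-Hochberg over all 54613 probe sets, at 0.05. With 2 arrays against 2 the smallest two-sided p of an exact permutation test is 0.333, and no such test was made. The scripts were tested on simulated data.

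The members and the lists were chosen with earlier results of these data known. All members were named with their probe sets, and from each list the genes that passed in a comparison or, where none did, the 2 with the smallest p. Some genes of these lists are not reported here. Probe sets with a mean under 4.23, the level that bounds the dimmest 40%, are called dim. Results were recomputed with quantile normalization, with median-centred arrays, without dim probe sets, with a prior that was trended and robust, with the replicate number added as a block, from the 2 groups compared alone, with an added fold limit of 1.5, by the methods' t-test (p up to 0.05, fold 1.1 or more), from gene means over probe sets, and without each array in turn.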

Additional observations from a re-analysis of the deposited data

Results flagged for a closer look

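In all, 10 results differed between the treatments, in that the direct comparison of statin with nLDL passed the test. Of these, 3 were among the 28 member probe sets, beside 2.44% of all probe sets tested that passed. The rest were genes of the 6 lists, which held from 11 to 16 genes each, beside 3.51% of all genes. The differences of statin minus nLDL were -0.82 for BIK, -0.51 for BCL2L1 at 206665_s_at and -0.56 for BCL2L11 at 1558143_a_at. Among the other apoptosis genes they were 1.02 for CDKN1A, 0.58 for MYC, 0.56 for BCL2L14, 0.53 for TNFRSF1A, 0.50 for TP53INP1, 0.44 for BNIP3L and -0.50 for BIRC5. Each is on the log2 scale, with limma adjusted p between 0.00685 and 0.0462. For TP53INP1 the statin arrays (9.12 and 9.28) lay above and the nLDL arrays (8.65 and 8.76) below the control arrays (8.94 and 8.96), and neither difference from control passed. TNFRSF1A had the same order of groups. Every call in this comparison was lost without at least 1 of the 6 arrays. That of BCL2L1 at 206665_s_at was lost whichever of the 6 was left out.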

How the results depend on the processing

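With 2 arrays a group the counts of calls moved with many settings, while directions mostly held. Between statin and control, 1429 probe sets, 1 member gene and 3 member probe sets passed. Quantile normalization gave nearly the same counts, with 1424 probe sets, 1 member gene and 3 member probe sets. The probe sets became 820 with a replicate block, 2745 without dim probe sets, 4954 with a trended and robust prior, 607 with the compared groups alone, 694 with a fold of at least 1.5, 6191 by the methods' t-test at its thresholds and 0 after its adjustment. Centring on medians gave 1657, of which 458 were higher and 1199 lower, beside 522 and 907. Member genes became 2 without dim probe sets, 5 with the trended prior, 4 by the methods' t-test, 0 after its adjustment and 3 by the mean over probe sets. Member probe sets became 1 with the replicate block, the groups alone or the fold, 5 with centring, 6 without dim probe sets, 9 with the trended prior, 8 by the methods' t-test and 0 after its adjustment. Without 1 array the counts ranged from 45 to 607 probe sets, 0 to 1 member genes and 0 to 1 member probe sets.

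Between statin and nLDL, 1334 probe sets, 1 member gene and 3 member probe sets passed. The probe sets became 2367 without dim probe sets, 4464 with the trended prior, 458 with the groups alone, 707 with the fold, 5100 by the methods' t-test and 2 after its adjustment. Member genes became 5 with the trended prior, 0 with the groups alone, 2 by the methods' t-test, 0 after its adjustment and 2 by the mean over probe sets. Member probe sets became 1 with the replicate block or the fold, 8 with the trended prior, 0 with the groups alone, 5 by the methods' t-test and 0 after its adjustment. Without 1 array they ranged from 45 to 458 probe sets, 0 to 1 member genes and 0 to 1 member probe sets. Between nLDL and control 0 became 58 probe sets with the trended prior and, by the methods' t-test, 1982 probe sets and 2 member probe sets. Without 1 array the count stayed at 0.

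Whether arrays with the same replicate number were handled together is not known. Their deviations correlated by 0.09, 0.02 and 0.05 over all probe sets, which does not settle it. With the number as a block, limma adjusted p was 0.0684 for BCL2L1 at 206665_s_at, 0.0558 at 215037_s_at and 0.0729 for TNFRSF1A between statin and control, so that these calls were lost. Those lost between statin and nLDL were BCL2L1 at 206665_s_at (0.0802), BCL2L11 at 1558143_a_at (0.0504), BCL2L14 (0.0532), BNIP3L (0.0762), TNFRSF1A (0.0507) and TP53INP1 (0.0519). Directions turned only where differences were small. Between statin and control, MCL1 became -0.0126 with centring and -0.0123 by the mean over probe sets. Between nLDL and control, BCL2L1 became 0.0244 with quantile normalization, BCL2L11 -0.0157 with centring and -0.0689 by the mean, MCL1 0.0271 and BID 0.0021 by the mean. Between statin and nLDL, MCL1 became -0.0394 by the mean. Without 1 array, statin minus control ranged from -0.0072 to 0.0517 for MCL1 and -0.43 to 0.17 for BAX, and statin minus nLDL from -0.37 to 0.23 for BAX. The nLDL minus control ranges were -0.0374 to 0.0356 for BCL2L1, -0.0777 to 0.0781 for BCL2L11, -0.31 to 0.10 for BBC3, -0.073 to 0.0013 for PMAIP1, -0.19 to 0.0766 for BAX, -0.0677 to 0.0136 for BID and -0.20 to 0.16 for BIK. Where an array was left out, the lone array of its group was assumed to vary like the others. Leaving out an array of the group not compared gave the same result as fitting the compared groups alone, so these are not separate checks. The cause of these changes was not tested.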
